A study of Bos taurus with 96 samples.

Results

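The genes described are 9 genes of Schwann cells and of the myelin sheath, measured on 96 bovine arrays: PMP2, MBP, GFAP, SOX10, CDH19, NCAM1, PMP22, S100B and METRN. They are 9 of 10680 genes that carry a name in the table of 34227 probes, and 22 probes of that table measure them. The genes were chosen by name with earlier results of these data known, and several of them were selected on a higher level in intramuscular fat than in subcutaneous fat, muscle or the other depots. Those differences are therefore given as a description with no test. No filter on low values was applied, so all 9 genes are reported, each by its brightest probe.

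Total RNA came from steers of 3 genetic backgrounds, Angus, Hereford and Wagyu x Angus, and 259 feedlot days are given for them. The steers that gave the fat were slaughtered at about 26 months, and no age was used here for LD. The fat depots gave 12 arrays each, with 4 arrays per breed: intramuscular fat dissected from the longissimus dorsi muscle (IMF), subcutaneous fat over the rump (SC), fat from between muscles (Inter), fat around the kidney (Kid) and fat of the omentum (Omen). All of these steers had been on pasture after weaning. The longissimus dorsi muscle with its fat in place (LD) gave 36 arrays, 24 from steers on pasture and 12 from steers given supplement after weaning. The methods draw some of them, of both feeding groups, from an earlier kill that the labels do not mark. The labels do not tie an array to a steer and the depots came from one set of animals, so arrays of different tissues can share a steer, and p-values measure the spread between these arrays alone. An array is named by breed, slide and position on the slide.

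Schwann cells are the glia of peripheral nerves. Some of them wrap single large axons in myelin, a stack of membrane held together by proteins such as MBP and PMP22, and others hold bundles of thin axons without making myelin. Skeletal muscle carries motor and sensory nerves with many myelinated fibres, whereas the nerves of white fat are mostly thin sympathetic fibres. SOX10 is the transcription factor that keeps cells in the glial lineage. CDH19 is a cadherin of the neural crest and of Schwann cells, GFAP an intermediate filament of glia, PMP2 a fatty acid binding protein of peripheral myelin, and these 4 genes and MBP are grouped here under the name glial-restricted. In the fat depots other than IMF, MBP had no slope past the threshold with SOX10, GFAP or CDH19, as described further on, so the name holds for MBP only as a grouping. NCAM1, an adhesion molecule of nerve and regenerating muscle, PMP22, S100B, a calcium binding protein of glia and of adipocytes, and METRN, a secreted factor of glia, are also made by other cells.

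Levels are on a log2 scale, taken from the scanner's processed signal relative to the 75th percentile (P75) of the same array, so 0 is that percentile. Levels of different probes cannot be set against each other. By the scanner's own flag, the share of the table's probes that were well above background lay between 91.6 and 99.5% on the IMF arrays, between 87.0 and 99.6% on the other fat arrays and between 80.9 and 96.1% on LD. All 12 IMF arrays were scanned on one day, on 3 slides of 4 arrays. In whole tissue, fewer cells of a type and less RNA per cell cannot be told apart.

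The glial-restricted genes ranged widely over the 12 IMF arrays. PMP2 ran from -6.06 through a median of -0.04 to 3.44, a span of 724-fold, and was well above background on all 12. MBP ran from -0.61 through 1.32 to 4.41, a span of 32.4-fold. GFAP ran from -4.58 through -1.55 to 1.60, a span of 72.4-fold. The high values were on the same arrays for all 3 genes: Hereford slide 9 position 2 was highest in each, followed by Wagyu x Angus slide 18 position 3, Wagyu x Angus slide 8 position 2 and Angus slide 8 position 1. SOX10 ran from -6.34 through -4.12 to -1.48 and was well above background on 11 of the 12 arrays. CDH19 ran from -3.98 through -1.94 to 0.33. Both genes were again highest on Hereford slide 9 position 2, and the lowest arrays were Angus slide 9 position 4 for SOX10 and Angus slide 18 position 2 for CDH19.

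The broadly expressed members spanned less. PMP22 ran from 2.31 through 3.60 to 5.11, S100B from 2.25 through 3.24 to 4.80 and METRN from -1.29 through 0.07 to 1.28, which are spans of 6.94-fold, 5.87-fold and 5.92-fold. NCAM1 ran from -2.22 through -1.03 to -0.21, a span of 4.00-fold. Its highest array, Angus slide 18 position 1, was in the lower part of the order for the glial-restricted genes.

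**Figure D1:**
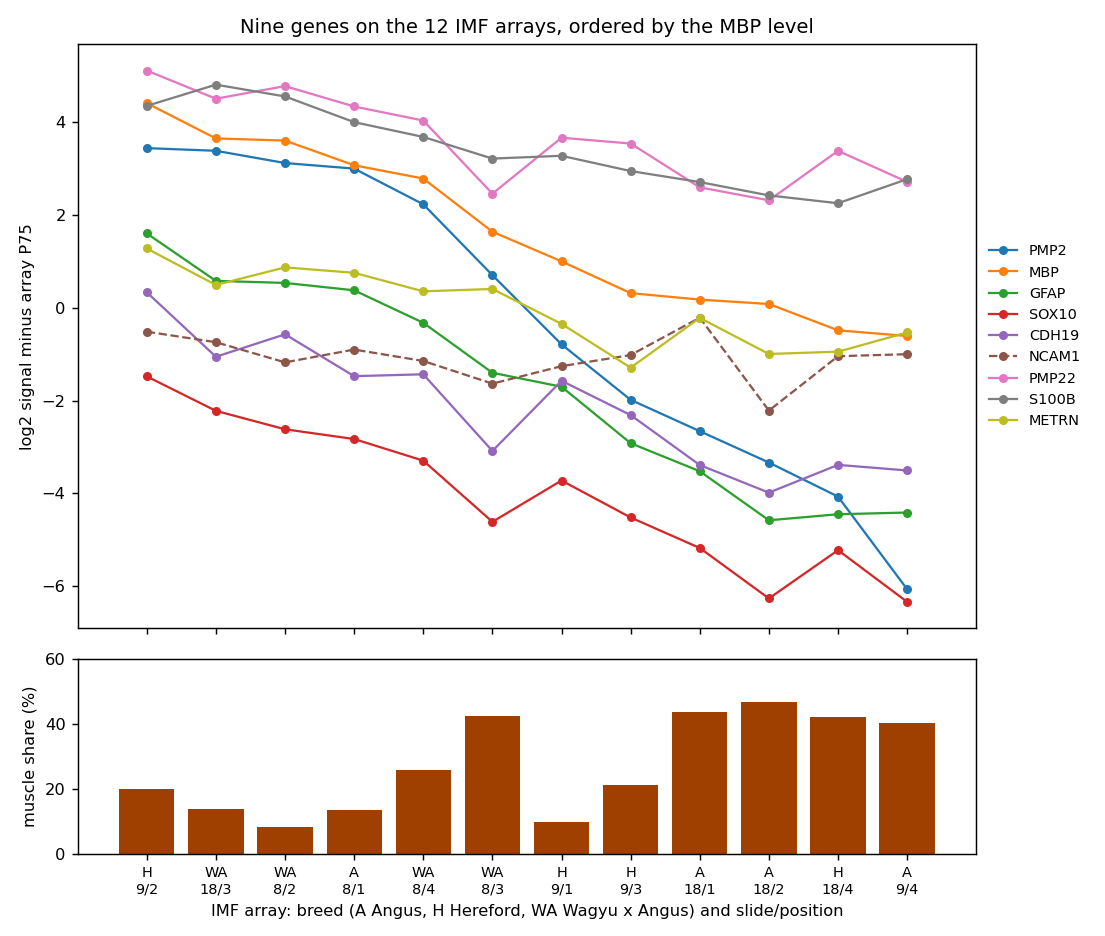
Level of the 9 genes (log2 signal minus array P75, upper panel) and muscle share in percent (lower panel) on the 12 IMF arrays, ordered by MBP, with breed and slide/position under each bar. PMP2 drops from 3.44 to -6.06 along the order and 7 other genes drop with it, while NCAM1 (dashed) stays between -2.22 and -0.21.

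Against all probes the spread of these genes within IMF was large. The SD of PMP2 over the 12 IMF arrays was 3.34, and only 2 of the 34227 probes, PMP2 included, had an SD that large, against a median SD of 0.34 over all probes. The SD was 2.24 for GFAP, 1.79 for MBP, 1.58 for SOX10 and 1.36 for CDH19, and each of these exceeded the SD of at least 99.16% of the probes. NCAM1 had an SD of 0.51, above that of 73.1% of the probes. A wide spread was not particular to IMF. MBP had a larger SD in Kid, 2.07 with a span of 68.7-fold, and CDH19 in Omen, 1.77, where 2 arrays were not well above background. PMP2, partly at background there, had an SD of 1.40 in SC, above 99.37% of the probes, and 1.49 in LD, above 99.65%, while MBP had 0.64 in LD, above 81.7%.

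The next question was whether the genes covary between single IMF arrays. The level of each probe was regressed on the level of MBP over the 12 arrays with limma, with Benjamini-Hochberg adjustment over the 34225 probes that are not of MBP. Of these probes 3.18% had a positive and 2.63% a negative slope past the adjusted p of 0.05, 1989 probes in all, and with each array left out this number ran from 640 (without Wagyu x Angus slide 8 position 2) to 6408 (without Hereford slide 9 position 2) while 7 members were called each time. Of the 8 other members 7 had a positive slope and 0 a negative one. The slope was 1.81 ± 0.13 (SE) for PMP2 (adjusted p = 7.7e-06), 1.23 ± 0.07 for GFAP (1.7e-06), 0.83 ± 0.08 for SOX10 (0.00010) and 0.69 ± 0.09 for CDH19 (0.0012); PMP2 thus changed by more log2 units than MBP did. S100B, METRN and PMP22 had slopes of 0.45 ± 0.05 (0.00013), 0.42 ± 0.06 (0.0014) and 0.45 ± 0.08 (0.0098). NCAM1 had a slope of 0.07 ± 0.08 with an adjusted p of 0.56, and its 5 other probes had slopes from 0.02 to 0.11, none past the threshold. The second SOX10 probe, which was well above background on 0 of the 12 IMF arrays, had a slope of -0.29 (adjusted p = 0.21), and with the median of both probes the call of SOX10 was lost (adjusted p = 0.082).

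The genes were also compared pair by pair. Over the 12 IMF arrays 28 of the 36 pairs of genes were correlated at a permutation p under 0.05 after adjustment over the 36 pairs, and these were the 28 pairs without NCAM1. The share of called pairs among all pairs of probes was not computed, so the count does not set these pairs apart from others. Pearson's r was 0.86 to 0.98 for the 10 pairs among PMP2, MBP, GFAP, SOX10 and CDH19, and Spearman's rho 0.93 to 1.0. PMP2 and MBP had r = 0.97 (permutation p = 1e-05, adjusted p = 5.14e-05) and rho = 1.0 (permutation p = 1e-05), the smallest p that 100000 permutations can give, and r = 0.98 without the 2 arrays farthest from the median of PMP2. With the 2 farthest arrays left out, r lay between 0.84 and 0.98 for those 10 pairs, and 26 of the 28 pairs without NCAM1 passed. The 8 pairs with NCAM1 had r from 0.20 to 0.42 over all 12 arrays, and from -0.19 to 0.68 without the 2 farthest, where 1 of them, with PMP22, passed (r = 0.68). With 4 arrays on each of the 3 slides, no correlation was computed within a slide.

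**Figure D2:**
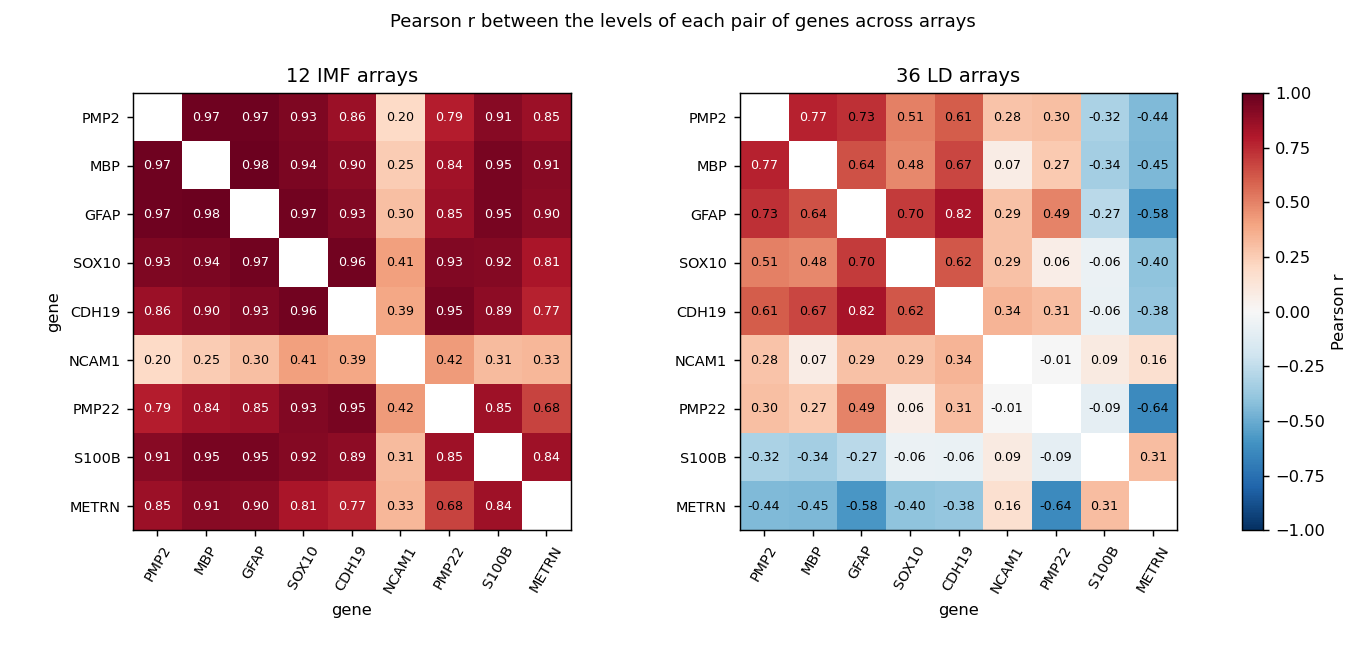
Pearson r for each pair of the 9 genes across the 12 IMF arrays (left) and the 36 LD arrays (right), with the value in each cell. All pairs without NCAM1 are at 0.68 or above in IMF, while in LD the pairs of METRN with the 5 glial-restricted genes lie between -0.58 and -0.38.

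Other genes of the pathway were taken from lists of Schwann cell and myelin genes, measured by 1 probe each. Of 9 measured genes of the myelin sheath and of myelin lipid synthesis, 8 had a positive slope on MBP in IMF and 0 a negative one, with a median slope of 0.48 against -0.01 over all probes. They were UGT8, the enzyme that makes the myelin lipid galactosylceramide (1.47 ± 0.09, adjusted p = 2.2e-06), CMTM5 (1.19 ± 0.10, 2.9e-05), PLLP, or plasmolipin (1.07 ± 0.06, 1.1e-06), ITGB4, MAL, MAG, CNP and CLDN19, the last 5 between 0.22 and 0.55. UGT8 ran from -6.41 through -2.57 to 0.91 over the IMF arrays. Of 12 measured genes of the Schwann lineage 5 had a positive slope and 0 a negative one, with a median of 0.27. These were COL28A1, a collagen laid down around Schwann cells (1.27 ± 0.13, 9.6e-05), FABP7 (0.86 ± 0.05, 2.2e-06), ERBB3, the receptor for axonal neuregulin (0.68 ± 0.08, 0.00035), SCN7A (0.59 ± 0.08, 0.0017) and POU3F1 (0.33 ± 0.07, 0.019). SOX2, TFAP2A, NGFR and L1CAM were among those that did not pass.

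Few genes of neurons passed. Of 9 measured, 1 had a positive slope, the synaptic vesicle protein SYT1 (0.66 ± 0.07, adjusted p = 7.9e-05), and 1 a negative one, the enzyme TH of catecholamine synthesis (-0.11 ± 0.03, 0.042), with a median of -0.04. Of 8 adipocyte genes 0 passed, of 12 skeletal myofibre genes 0, of 6 smooth muscle genes 1 (ACTG2, negative), of 7 genes of the endplate and satellite cells 1 (MYF5, negative), of 4 macrophage genes 1 (CD14, positive), and of 5 endothelial and 5 tendon genes 0. The mean levels of these lists still moved with MBP over the 12 arrays, given as a description with no test. Pearson's r was -0.67 for smooth muscle, 0.65 for macrophages, -0.61 for endplate and satellite cells and -0.59 for myofibres. It was 0.57 for adipocytes, 0.53 for endothelium, -0.405 for tendon and 0.402 for neurons. The part of these lists in the slopes of the members was not tested.

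Among named genes with a probe well above background on all 12 IMF arrays, the 5 with the highest Pearson r to MBP, members left out, were CLDN1 (r = 0.991), WNT6 (0.986), PEX5L (0.986), HAPLN2 (0.985) and PLLP (0.984), of 9751 genes ranked, each by its best probe. GFAP ranked sixth in that order and NCAM1 stood at rank 3291 (r = 0.36 for its best probe).

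The muscle share of an array is the median position between the SC and LD means, on a linear scale, of 2717 probes over 4-fold higher in LD than in SC, members left out. It ran from 8.23% through 23.5% to 46.8% over the IMF arrays, from 71.2 to 112% over LD and from -0.78 to 5.11% over the other fat arrays. The glial genes were lower on the IMF arrays with more muscle RNA. With limma over the 12 arrays, where 21.0% of all probes had a positive and 19.6% a negative slope, 7 of the 9 genes had a negative slope and 0 a positive one. Per percentage point of muscle share the slope was -0.16 ± 0.05 for PMP2 (adjusted p = 0.014), -0.12 ± 0.03 for GFAP (0.0059), -0.09 ± 0.02 for SOX10 (0.0022), -0.08 ± 0.02 for MBP (0.017) and -0.08 ± 0.01 for CDH19 (0.00081). PMP22 had -0.05 ± 0.01 (0.0012) and S100B -0.05 ± 0.01 (0.0039), while METRN had -0.03 ± 0.01 (0.13) and NCAM1 -0.01 ± 0.01 (0.50). Other cell types moved with muscle share as well: 7 of 8 adipocyte genes and 3 of 5 endothelial genes had a negative slope, among them ADIPOQ (-0.04 ± 0.01, 0.0053), and their part in the slopes of the members was not tested. The positive slope of 12 of 12 myofibre genes follows from how muscle share is computed. The calls of GFAP (adjusted p = 0.089) and SOX10 (0.41) were lost with the median of their probes, and that of PMP2 with the replicate block (0.053). The second SOX10 probe, well above background on 0 of the 12 IMF arrays, had a positive slope past the threshold (0.06, adjusted p = 0.0045). The second MBP probe had -0.06 (0.056) and the second GFAP probe -0.05 (0.019). The order was not strict: Wagyu x Angus slide 8 position 3 had 42.3% muscle and an MBP level of 1.64, whereas Hereford slide 9 position 1 had 9.59% and 0.998. With muscle share as a covariate, PMP2, GFAP, SOX10, S100B and METRN kept a positive slope on MBP past the threshold (1.72, 1.09, 0.65, 0.37 and 0.50), and CDH19 (0.45, adjusted p = 0.056) and PMP22 (0.26, 0.27) did not. Over all probes 285 were called with that covariate, against 1989 without it.

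Across tissues the glial-restricted genes had their highest mean level in IMF by the probes used. By the second SOX10 probe, well above background on 0 of the 12 IMF arrays, IMF minus SC was -0.27, against 2.745 by the probe used. By the second GFAP probe, well above background on 7 IMF arrays, it was 0.62 against 3.51. The second MBP probe gave 3.45 against 4.67. PMP2 had a mean of -0.25 ± 3.34 (SD) in IMF, -6.55 ± 1.40 in SC, -7.02 ± 1.35 in Inter, -5.89 ± 1.07 in Kid, -6.48 ± 1.32 in Omen and -5.54 ± 1.49 in LD. It was well above background on 3 of 12 SC, 6 of 12 Inter, 9 of 12 Kid, 7 of 12 Omen and 17 of 36 LD arrays, so those means lie near the background, and 8 of the 12 IMF arrays were above the highest LD array. MBP had means of 1.63 ± 1.79 in IMF, 0.60 ± 0.64 in LD, -2.22 ± 2.07 in Kid, -2.59 ± 0.73 in Inter, -3.04 ± 0.93 in SC and -3.15 ± 0.64 in Omen. Whole muscle thus came second for MBP, and 5 of the 12 IMF arrays were above the highest LD array. CDH19 was ordered differently: its LD mean of -5.25 ± 0.82 was the lowest, every IMF array was above every LD array, and Kid (-2.45 ± 0.76) was near IMF (-2.12 ± 1.36), with Inter at -3.33 ± 0.76, SC at -4.69 ± 0.87 and Omen at -4.70 ± 1.77.

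SOX10 had means of -4.02 ± 1.58 in IMF, -4.54 ± 0.62 in Kid, -5.64 ± 0.55 in LD, -5.87 ± 0.85 in Inter, -6.37 ± 1.02 in Omen and -6.77 ± 0.70 in SC. SOX10 was well above background on 3 of 12 SC, 9 of 12 Omen, 10 of 12 Inter and 23 of 36 LD arrays, so the lower of these means lie partly at background. The IMF and Kid ranges overlapped, and the Kid arrays were much closer to each other. GFAP had -1.68 ± 2.24 in IMF, -3.98 ± 0.87 in LD, -4.07 ± 0.67 in Kid, -4.85 ± 0.51 in Inter, -5.19 ± 0.72 in SC and -5.27 ± 0.44 in Omen. Every IMF array was above every SC array for MBP and METRN, which are 2 of the 9 genes against 6.66% of all probes, and above every LD array for CDH19, 1 of the 9 against 6.25%. These differences entered the choice of the genes and nothing is read from them.

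**Figure D3:**
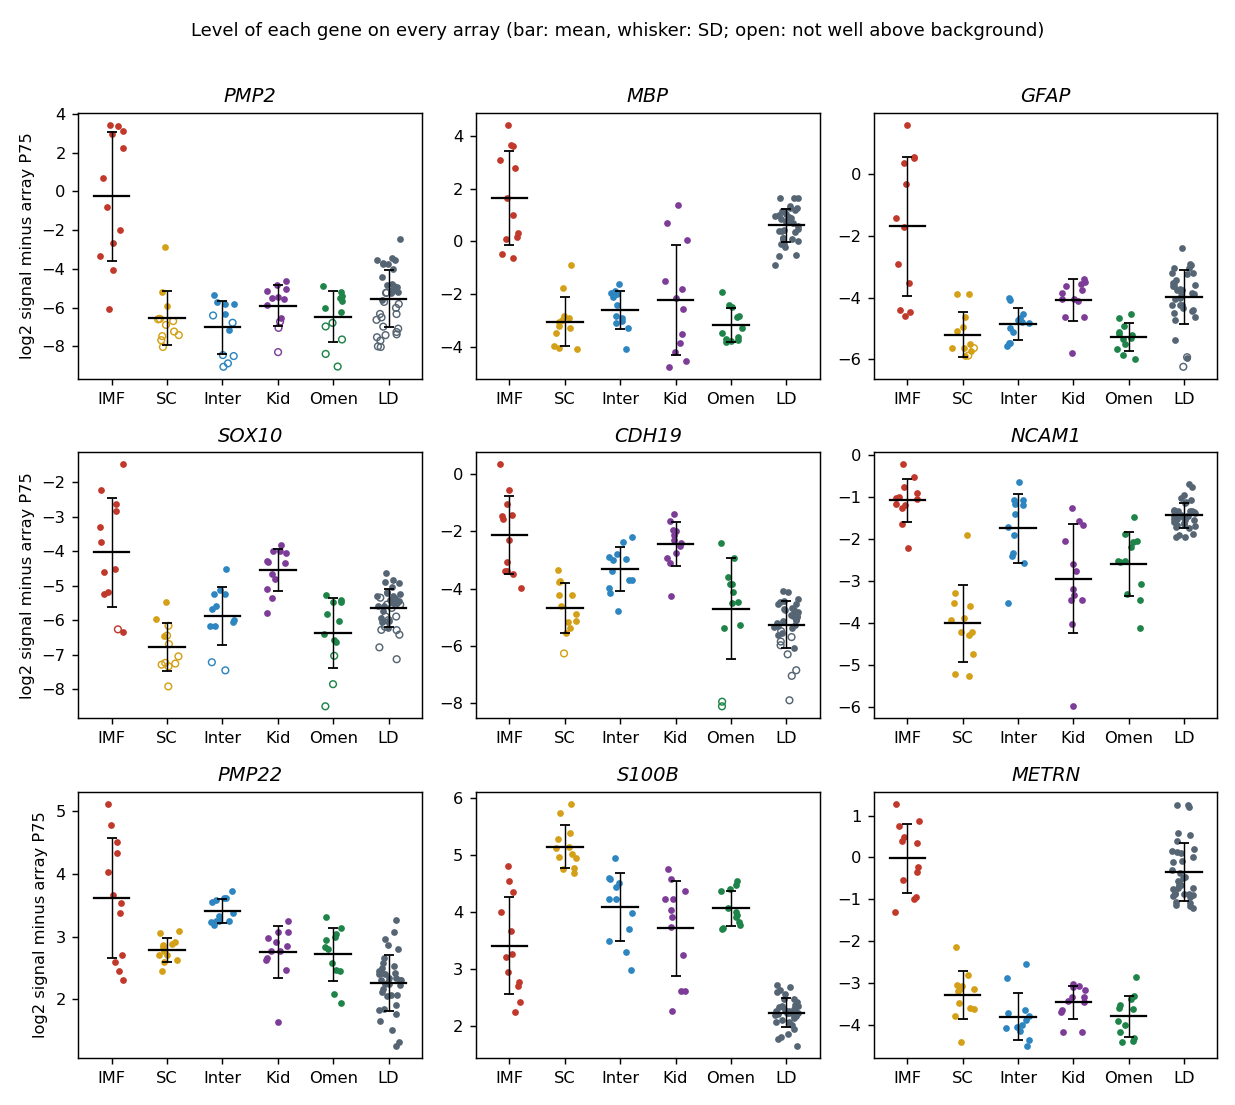
Level of each gene (log2 signal minus array P75) on all 96 arrays by tissue, 12 arrays per fat depot and 36 of LD. Bars are means, whiskers SD, and open circles arrays on which the probe was not well above background. The 12 IMF arrays of PMP2 spread from -6.06 to 3.44, S100B has its highest mean, 5.15, in SC, and METRN separates IMF and LD from the other 4 depots.

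The broadly expressed members each had an order of their own. S100B was highest in SC, with a mean of 5.15 ± 0.38, against 4.09 ± 0.60 in Inter, 4.07 ± 0.31 in Omen, 3.72 ± 0.84 in Kid, 3.41 ± 0.85 in IMF and 2.24 ± 0.25 in LD, and 0 of the 12 IMF arrays reached the SC median. METRN had -0.02 ± 0.83 in IMF and -0.35 ± 0.69 in LD against means from -3.80 to -3.28 in the other depots, and its IMF and LD ranges overlapped. NCAM1 had -1.07 ± 0.51 in IMF, -1.43 ± 0.30 in LD, -1.74 ± 0.83 in Inter, -2.60 ± 0.76 in Omen, -2.94 ± 1.30 in Kid and -4.00 ± 0.92 in SC. PMP22 was the flattest, with means between 2.27 ± 0.45 in LD and 3.62 ± 0.95 in IMF.

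The contrasts that follow were not themselves used to choose the genes, and were tested with limma over all 34227 probes. They use the same LD and depot arrays as the differences that were, so the choice can bear on both sides of them. Between LD and the mean of Inter, Kid and Omen most of the array differed, with 45.2% of probes higher and 42.2% lower in LD, so the share of members called says little. Members listed for a higher level in IMF than in LD favour a low LD level, and those listed for IMF over the other depots a low depot level. METRN (3.33 ± 0.14, adjusted p = 1.2e-34), MBP (3.26 ± 0.24, 4.1e-21), NCAM1 (0.99 ± 0.17, 1.6e-07) and GFAP (0.75 ± 0.17, 4.6e-05) were higher in LD. PMP2 had a difference of 0.93 ± 0.32 (0.0060), but it was well above background on 17 of the 36 LD arrays, and the lowest level well above background lay between -6.51 and -4.93 on the LD arrays against -7.60 to -5.80 on those of Inter, Kid and Omen, so no direction is read from it. The same floors bear on SOX10, and on CDH19, which was well above background on 28 of 36 LD and 10 of 12 Omen arrays. CDH19 (-1.76 ± 0.24, 2.9e-10), S100B (-1.72 ± 0.11, 2.6e-24) and PMP22 (-0.70 ± 0.10, 5.3e-10) were lower, and SOX10 had -0.05 ± 0.16 (0.77). The call of PMP2 was lost with the 24 pasture arrays of LD alone (0.60, adjusted p = 0.086) and with slide as a random block (0.89, 0.075). With the authors' log2 values, GFAP turned to -0.33 (adjusted p = 0.041), PMP2 to -0.22 (0.48) and NCAM1 to -0.07 (0.70). SOX10 was -1.01 (3.6e-12) with the authors' log2 values, and turned to 0.74 (6.9e-12) with normexp background correction and to 0.87 (3.3e-09) with the median of its probes. Both lists were also split. Of the 9 myelin genes 6 were higher in LD, among them PLLP (0.93 ± 0.16), and 3 lower, and of the 12 Schwann lineage genes 3 were higher and 5 lower, among these ERBB3 (-1.02 ± 0.22). UGT8, counted as higher, was well above background on 1 of 12 Omen and 5 of 12 Inter arrays, and SCN7A, counted as lower, on 10 of 36 LD arrays, so the size of their differences is not given. Markers of other cell types moved as well. In LD 8 of 8 adipocyte (median -5.9), 5 of 5 endothelial and 4 of 4 macrophage genes were lower, and 12 of 12 myofibre genes were higher. The part of these lists in the differences of the members was not tested.

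Among the depots that are not in muscle, Kid had higher levels of some glial-restricted genes. Against Omen, where 6.34% of probes were higher and 5.78% lower in Kid, 3 of the 9 genes were higher in Kid and 0 lower: CDH19 by 2.25 ± 0.53 (adjusted p = 0.0080), SOX10 by 1.83 ± 0.33 (0.0012) and GFAP by 1.202 ± 0.22 (0.0016). SOX10 ran from -5.80 through -4.32 to -3.81 in Kid and from -8.49 through -6.21 to -5.27 in Omen, and the ranges overlapped, with 9 of the 12 Omen arrays well above background. For CDH19 the 2 Omen arrays that were not well above background had the lowest levels, -7.95 and -8.11, against -5.37 or more on the other 10, so the size of its difference rests partly on them. COL28A1, SCN7A and L1CAM of the Schwann lineage and UGT8 were also higher in Kid, and SOX2 and ITGB4 were lower. Of 12 skeletal myofibre genes 7 were higher in Kid as well and 0 lower (median 1.27, MYL2 4.50 ± 0.73, adjusted p = 0.00049), and their part in the difference was not tested. Against Inter, where 7.84% of probes were higher and 7.58% lower in Inter, SOX10 (-1.33 ± 0.29, adjusted p = 0.0049), CDH19 (-0.88 ± 0.30, 0.047) and GFAP (-0.78 ± 0.23, 0.029) were lower in Inter than in Kid, and PMP22 was higher (0.65 ± 0.13, 0.0029). Of 5 tendon genes 3 were higher in Inter as well and 0 lower (median 2.29), and their part in the difference was not tested. NCAM1 had 1.198 ± 0.42 (0.056). It passed with normexp (0.048), the authors' log2 values (0.043) and the spread from all 96 arrays (0.0019), and 3 of its 6 probes passed on the scale used here. Between Inter and Omen, with 5.87% of probes higher and 7.69% lower in Inter, PMP22 alone of the 9 passed (0.70 ± 0.13, 0.0014), and it was the 1 call among 5 genes at an unadjusted p under 0.05. The other genes gave adjusted p-values from 0.067 to 0.98. With the authors' log2 values MBP (0.049), GFAP (0.024), CDH19 (0.021) and NCAM1 (0.027) passed as well. With the spread from all 96 arrays CDH19 (0.020) and NCAM1 (0.041) did. On the scale used here another NCAM1 probe passed (1.17, 0.014) and another PMP22 probe did not (0.26, 0.34). Of other lists 6 of 12 myofibre (median 2.24) and 3 of 5 tendon genes (1.85) were higher in Inter than in Omen, and 2 of 5 endothelial genes lower. Their part was not tested.

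These 3 contrasts are tied to the scan. The Inter arrays were all scanned on day 2, the Kid arrays on 3 days and the Omen arrays on days 2 and 3. With scan day as a covariate, 1 gene remained past the threshold between Kid and Omen (GFAP 1.45, adjusted p = 0.051, CDH19 2.64, 0.099) and 2 between Inter and Kid (GFAP -0.89, 0.063, CDH19 -0.95, 0.12). Between Inter and Omen 0 of 9 remained (PMP22 0.92, adjusted p = 0.058), where 3 were at an unadjusted p under 0.05. Over all probes the calls fell under that setting from 4150 to 281 between Kid and Omen, from 5276 to 2774 between Inter and Kid and from 4642 to 485 between Inter and Omen. SOX10 passed in both contrasts with Kid under that setting. Between Inter and Kid, GFAP and CDH19 were also lost with slide as a random block (-0.74, adjusted p = 0.11, and -0.87, 0.13). The same held with the authors' log2 values (-0.50, 0.17, and -0.70, 0.13). With the spread from all 96 arrays, where NCAM1 passed, GFAP (0.19) and CDH19 (0.14) were lost between Inter and Kid. CDH19 was lost there also with breed as a covariate (0.053), centring on the mean (0.051), all probes that are not controls (0.056) and an ordinary t-test (0.059). GFAP was lost between Kid and Omen with the median of its probes (0.10).

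The same slopes were taken in whole muscle. Over the 36 LD arrays, with breed and feeding as covariates, 9.18% of probes had a positive and 8.6% a negative slope on MBP, 6083 probes in all. That number was 46 with slide as a random block, 204 with scan day as a covariate and 573 with the pasture arrays alone, where 3, 3 and 4 members were called. PMP2 (1.72 ± 0.25, adjusted p = 0.00012), CDH19 (0.91 ± 0.15, 0.00045), GFAP (0.87 ± 0.17, 0.0014) and SOX10 (0.42 ± 0.12, 0.017) had a positive slope. These slopes were read partly at background, since PMP2 was well above it on 17, SOX10 on 23, CDH19 on 28 and GFAP on 34 of the 36 arrays. METRN had a negative one (-0.47 ± 0.14, 0.022), and S100B (-0.13 ± 0.06, 0.15), PMP22 (0.18 ± 0.09, 0.16) and NCAM1 (0.05 ± 0.08, 0.73) did not pass. The call of SOX10 was lost with the authors' log2 values (adjusted p = 0.073), normexp (0.64), slide as a random block (0.18), scan day as a covariate (0.11) and pasture arrays alone (0.27), and with the median of its probes the slope was -0.03 (0.93). With normexp the slopes of PMP2 (0.38, adjusted p = 0.053) and CDH19 (0.24, 0.17) were much smaller and no longer passed, and CDH19 did not pass with scan day as a covariate (0.76, 0.069). PMP22 passed with the pasture arrays alone (0.41, 0.040) and S100B with the median of its probes (-0.20, 0.041). The 10 pairs among the 5 glial-restricted genes had r from 0.48 to 0.82 and all passed after adjustment over the 36 pairs, and without the 2 farthest arrays r lay between 0.35 and 0.77 and 9 passed. The share of called pairs among all pairs of probes was not computed here either. Of the myelin list 5 of 9 genes had a positive slope (UGT8 1.23 ± 0.24, CMTM5 0.78 ± 0.13, PLLP 0.75 ± 0.13, ITGB4 and CNP) and of the Schwann lineage list 2 of 12 (ERBB3 and POU3F1), with 0 negative in either. Of the 8 adipocyte genes 4 had a negative slope (CIDEC, PLIN1, LIPE and LPL, from -1.16 to -0.45), and their part in the slopes of the members was not tested. The mean level of the adipocyte list ran from -1.52 to 1.94 over the LD arrays.

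METRN and S100B parted from the glial genes between the tissues. In LD, METRN had r from -0.58 to -0.38 with the 5 glial-restricted genes and S100B from -0.34 to -0.06, against 0.77 to 0.91 and 0.89 to 0.95 in IMF. The difference of the MBP slope between IMF and LD was tested with an interaction term over the 48 arrays, a test chosen after the values were seen. It was 0.60 ± 0.08 for S100B (adjusted p = 2e-05) and 0.87 ± 0.16 for METRN (0.00085), where 7.25% of all probes passed, and the other 6 genes did not pass, with adjusted p-values from 0.070 for PMP22 to 0.89 for NCAM1. The negative slope of METRN in LD was lost with the authors' log2 values (-0.11, adjusted p = 0.81), with slide as a random block (-0.39, 0.21) and with the 24 pasture arrays alone (-0.55, 0.13).

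**Figure D4:**
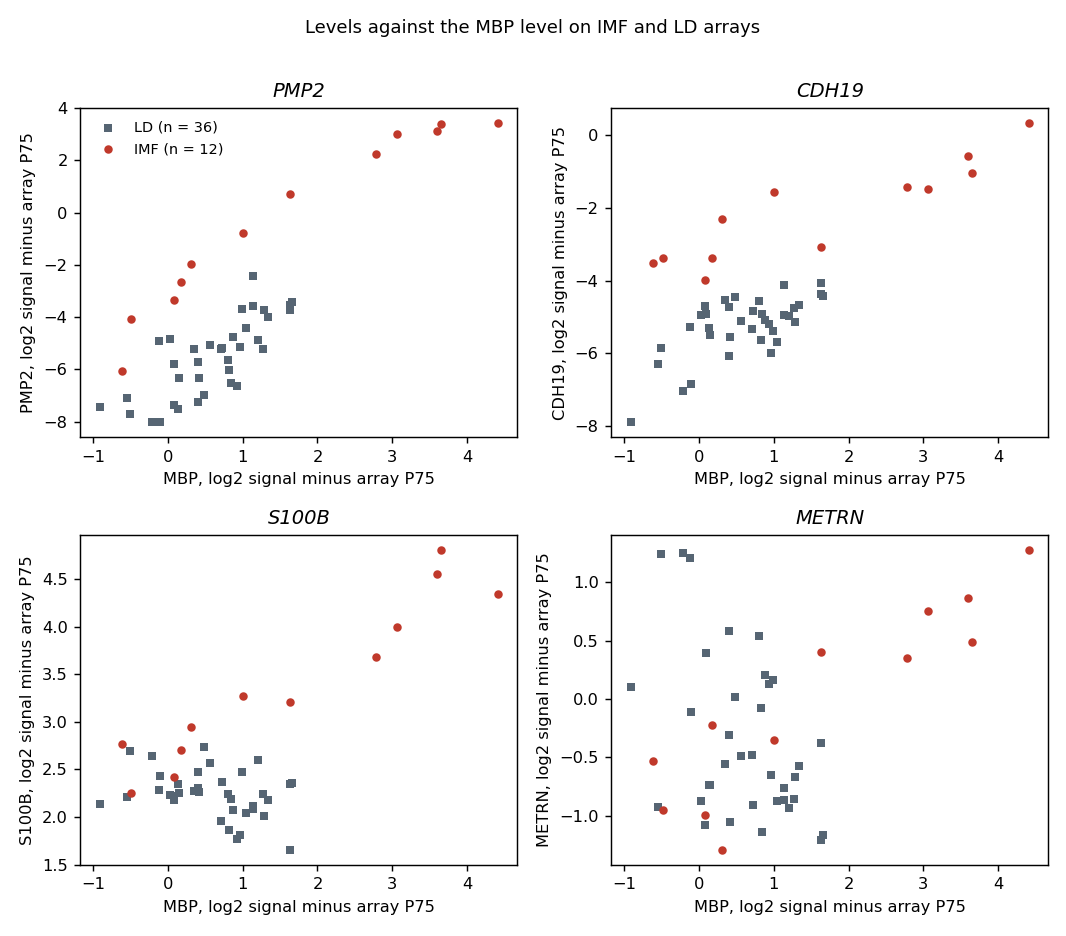
Level of PMP2, CDH19, S100B and METRN against the level of MBP (both log2 signal minus array P75) on 12 IMF arrays (circles) and 36 LD arrays (squares). PMP2 climbs with MBP in both tissues, with 17 of the 36 LD arrays well above background, while S100B and METRN climb with MBP in IMF and do not in LD.

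The slopes on MBP were then taken in the other 4 depots. Over the 48 arrays of Inter, Kid, Omen and SC, with depot as a covariate, 9.79% of probes had a positive and 9.91% a negative slope on MBP, 6742 probes in all and 1947 without Hereford slide 21 position 1 of Kid. Of the 8 members S100B alone passed, with a negative slope (-0.23 ± 0.06, adjusted p = 0.0041). The slopes of SOX10 (-0.04 ± 0.10), GFAP (0.01 ± 0.07) and CDH19 (-0.12 ± 0.13) had adjusted p-values from 0.59 to 0.96, and PMP2 had 0.38 ± 0.14 (0.055). PMP2 passed with quantile normalization (0.032), the authors' log2 values (0.011) and the replicate block (0.034). With the authors' log2 values S100B no longer passed (-0.13, 0.066) and METRN did (0.23, 0.0031), and with normexp PMP22 passed (-0.21, 0.013). The slope in IMF was higher than in these depots by 1.43 ± 0.24 for PMP2, 1.22 ± 0.12 for GFAP, 0.87 ± 0.16 for SOX10 and 0.81 ± 0.21 for CDH19 (adjusted p from 4.4e-10 to 0.0056, interaction chosen after the values were seen, 19.1% of all probes passing), and PMP22, S100B and METRN passed as well. For PMP2 the slope in these depots was read largely at background, since 3 to 9 of the 12 arrays of each depot were well above it. SOX10 was well above it on 3 of 12 SC, 10 of 12 Inter and 9 of 12 Omen arrays. CDH19 was so on 11 of 12 SC and 10 of 12 Omen arrays, and GFAP on 10 of 12 SC arrays. The slopes of these genes were thus read partly at background.

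Macrophage genes had positive slopes on MBP in these depots. CD68, a lysosomal protein of macrophages, had 0.80 ± 0.08 (adjusted p = 1.3e-09), CD14 0.52 ± 0.08 (4.6e-06) and CSF1R 0.25 ± 0.07 (0.0062), 3 of 4 measured genes of the list. Of 8 adipocyte genes 6 had a negative slope, PLIN1 at -0.21 ± 0.04 among them. POU3F1 had 0.77 ± 0.12 (2.5e-06) and MAG 0.14 ± 0.04 (0.0047), 1 gene each of the Schwann lineage and myelin lists. The Kid arrays held the extremes. MBP ran there from -4.74 through -2.36 to 1.36, and 3 Kid arrays, Hereford slide 21 position 1 (1.36), Hereford slide 22 position 4 (0.71) and Angus slide 4 position 1 (0.07), were above every SC, Inter and Omen array. The same 3 arrays had the highest CD68 levels of the fat arrays, 5.35, 4.46 and 3.62. On the first of them SOX10 was at -5.80, GFAP at -5.78 and NCAM1 at -5.98, each the lowest of the 12 Kid arrays. The other arrays of the 3 did not share these levels. SOX10, GFAP and NCAM1 were at -4.04, -3.85 and -3.19 on the second and at -4.80, -4.05 and -1.65 on the third. The Kid medians were -4.32, -3.95 and -2.97. The mean level of the 4 macrophage genes ran from 0.73 to 3.71 in Kid and from -1.303 to 0.38 in IMF, and the part of macrophages in the MBP level was not tested. Without Hereford slide 21 position 1 the slope of S100B was -0.21 (adjusted p = 0.053) and that of PMP2 0.53 (0.033).

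**Figure D5:**
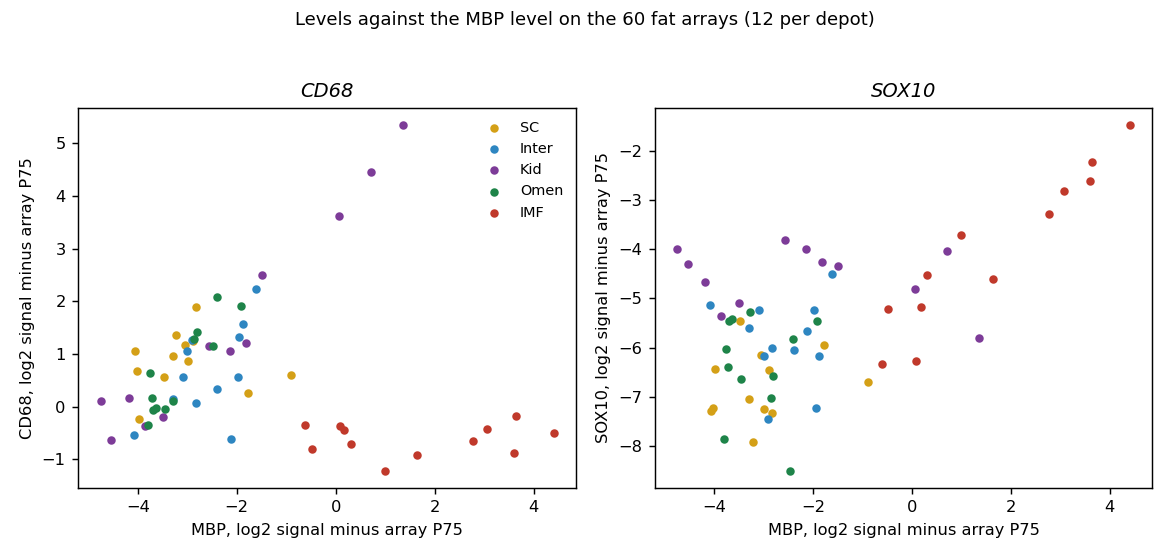
Level of CD68 (left) and SOX10 (right) against the level of MBP (all log2 signal minus array P75) on the 60 fat arrays, 12 per depot. CD68 climbs with MBP to 5.35 in Kid and stays between -1.22 and -0.17 in IMF, whereas SOX10 climbs with MBP in IMF and its slope over the other 4 depots, -0.04 ± 0.10, did not pass the test.

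Breed was compared within IMF and within LD. In IMF the F test over the 3 breeds called 0 of the 9 genes, with 0 at an unadjusted p under 0.05, and 0.0555% of all probes with limma. The largest F was that of PMP2 (adjusted p = 0.41), whose mean was 2.36 ± 1.21 in Wagyu x Angus, -0.85 ± 3.16 in Hereford and -2.27 ± 3.80 in Angus, with ranges that overlapped. The count at an unadjusted p under 0.05 rested on single arrays: it was 7 of 9 without Angus slide 8 position 1 and 5 of 9 without Hereford slide 9 position 2, with 0 past the adjusted threshold in each case. Over all probes 365 and 368 were past the adjusted threshold in these settings, against 19 with all IMF arrays. MBP had means of 2.92 ± 0.94, 1.31 ± 2.15 and 0.68 ± 1.63 in the same order. Breed and slide were not balanced, since most Wagyu x Angus arrays of IMF were on slide 8 and most Hereford arrays on slide 9. By slide the PMP2 means were 2.26 (slide 8), -1.35 (slide 9) and -1.67 (slide 18). In LD, where 25.3% of probes passed the F test, PMP22 alone of the 9 passed (adjusted p = 0.024), with pasture means of 2.33 ± 0.37 in Hereford, 2.20 ± 0.32 in Angus and 1.83 ± 0.46 in Wagyu x Angus. The call was lost with slide as a random block (adjusted p = 0.61), with scan day as a covariate (0.095) and with the pasture arrays alone (0.12).

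Supplement after weaning was compared with pasture over the 36 LD arrays with breed as a covariate. The methods draw LD samples of both feeding groups from an earlier kill, which the labels do not mark. Feeding and kill therefore cannot be told apart in this contrast. Of all probes 5.65% were higher and 5.60% lower with supplement. PMP22 alone of the 9 genes passed, with 2.55 ± 0.35 (SD, n = 12) against 2.12 ± 0.43 (n = 24), a difference of 0.43 ± 0.12 (SE, adjusted p = 0.021). It was lost with normexp background correction (0.37, adjusted p = 0.072), with the authors' log2 values (0.08, 0.69), with slide as a random block (0.43, 0.62) and with scan day as a covariate (0.33, 0.14). METRN, at -0.52 ± 0.21 (0.11), passed with the authors' log2 values (-0.82, 0.042). PMP2 differed by 0.97 ± 0.50 (0.22) and MBP by 0.22 ± 0.23 (0.59).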

How the data were processed

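For each 1-colour array the authors deposited its scanner file, whose processed spot signal is a background-subtracted intensity, together with a series matrix of log2 values for 34227 probes. All 3285792 of its values lie within 0.001 of log2 of the median spot signal minus local background, with no scaling between arrays. The main scale here is log2 of the processed intensity minus the P75 of the array. Spots flagged as outliers (0.223%) were left out, spots of a probe averaged, and no spot was saturated. Genes were named from RefSeq accessions of the assembly ARS-UCD2.0 (19903 probes) and from the paper's probe tables (4439). Each gene is represented by the probe with the highest mean signal over all arrays. Of the lists, genes past the threshold are named. Tests used limma 3.58.1 in R 4.3.3 (lmFit and eBayes, Benjamini-Hochberg over all probes, threshold 0.05), and permutations used numpy 2.4.6 with seed 1. The methods were tested on simulated data. The members and lists were chosen with earlier results of these data known. The number of arrays limits the precision. Some genes are not reported here, and no sequence is printed because no sequence file was used here. The authors' mixed model was not run here. Alternatives were quantile normalization, centring on the mean, normexp, the authors' log2 values, filters on dim probes, the median of a gene's probes, slide, scan day, position, breed or muscle share in the model, and leaving out single IMF arrays.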

Additional observations from a re-analysis of the deposited data

Results flagged for a closer look

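Single arrays stood far from the rest of their breed and tissue by Dixon's test in 8 of 189 groups of 4 to 8 arrays, and chance gives about 1 in 20. Hereford slide 9 position 2 had PMP22 at 5.11 in IMF, next to 3.66. In SC, GFAP was -3.89 on Wagyu x Angus slide 16 position 2 (next -5.64) and SOX10 -6.44 on Angus slide 15 position 4 (next -7.23), where none of the 4 arrays was well above background. In Inter, SOX10 was -5.12 on Hereford slide 3 position 3 (next -6.00) and MBP -3.29 on Wagyu x Angus slide 3 position 2 (next -2.12). In LD, PMP2 was -4.87 on Angus slide 1 position 4 with supplement (next -3.67), and Hereford slide 24 position 2 on pasture was lowest for both SOX10 (-6.42, next -5.54) and S100B (1.77, next 2.19).

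The slope on MBP differed between IMF and LD by 0.60 for S100B and 0.87 for METRN (limma interaction). Between IMF and the other 4 fat depots it differed by 1.43 for PMP2, 1.22 for GFAP, 0.87 for SOX10, 0.81 for CDH19, 0.50 for PMP22, 0.69 for S100B and 0.31 for METRN, the last with an adjusted p of 0.020. These interactions were chosen after the data were seen.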

How the results depend on the processing

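Of the results for single genes under other settings, 1372 kept direction and side of the threshold, 45 lost the call, 25 gained it and 38 turned sign. Genes called of 9 are given next, each with the probes called of all in brackets. Between Inter and Kid they were 4 [5276], and 2 with slide as a random block [1269] or scan day [2774]. Between Inter and Omen they were 1 [4642], and 5 with the authors' values [6743], 3 with the spread from all 96 arrays [4181] and 0 with scan day [485]. Between Kid and Omen they were 3 [4150], and 1 with scan day [281]. For supplement they were 1 [3850], and 0 with normexp [1148], slide [1] or scan day [2306]. For breed in LD they were 1 [8649], and 3 with normexp [19588], 4 with the authors' values [22870] and 0 with slide [15], scan day [2089] or pasture alone [5044]. Of 8 genes, the MBP slope called 5 in LD [6083], and 2 with normexp [2678] and 3 with the authors' values [2109], slide [46] or scan day [204]. In the other depots it called 1 [6742], and 2 with quantile normalization [6685], normexp [7936], the authors' values [14333] or the replicate block [5686], S100B not among them with the authors' values. Leaving out each IMF array called 0 to 0 genes for breed [0 to 368 probes, against 19 with all IMF arrays]. It called 7 to 7 for the MBP slope, with the range of probes given above, and 7 to 8 for muscle share [13881 with all IMF arrays].

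With the replicate block (the number is the position on the slide and no animal) 6 of 8 genes had an MBP slope in IMF [487 probes against 1989], PMP22 at 0.49 with an adjusted p of 0.053, and 6 of 9 a slope on muscle share. No scan day term could be fitted within IMF.

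Signs turned, mostly in values that were not called, as follows. Between Inter and Omen, S100B was -0.0011 with quantile normalization and -0.0022 with the replicate block; METRN 0.0915 with quantile, 0.0506 centred on the mean, 0.12 with the authors' values and 0.0266 with the median of probes; SOX10 -0.046 with normexp and -0.0473 with the median; GFAP -0.15 with the median. Between Kid and Omen, PMP22 was -0.0572 with quantile and PMP2 -0.22 with normexp. For LD against the mean of 3 depots, SOX10 was 0.74 with normexp and 0.87 with the median, and with the authors' values PMP2 was -0.22, GFAP -0.33 and NCAM1 -0.0736. For supplement, SOX10 was 0.11 with normexp and 0.0263 with the median, MBP -0.0559 with the authors' values and -0.0618 with scan day, NCAM1 0.0201 with the median, S100B 0.0312 with the median and 0.0727 with scan day, and CDH19 -0.16 with scan day. For the MBP slope in LD, S100B was 0.0288 with the authors' values, SOX10 -0.0257 with the median, and NCAM1 -0.0574 with the median and -0.14 with scan day. In the other depots GFAP was -0.0357 with normexp and -0.0876 with the median, NCAM1 0.0353 with normexp, SOX10 0.12 and PMP22 0.0648 with the authors' values, and without the Kid array highest in MBP NCAM1 was 0.0905, SOX10 0.0466 and PMP22 0.0174. In IMF, NCAM1 was -0.0056 on MBP without the 2 arrays highest in MBP, a setting chosen after seeing the data, and on muscle share it ran from -0.0173 to 0.00154 with each array left out, the upper value without Angus slide 18 position 2. The cause was not tested. The number of arrays and probes near background limit these values.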

Other observations

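Other gene lists were compared between the feeding groups of LD, where the kill is not marked in the labels and cannot be told apart from feeding. With supplement, 4 of 8 adipocyte genes, ADIPOQ (-1.63 ± 0.42 SE, adjusted p = 0.010), PLIN1, CIDEC and LPL, were lower than on pasture and 3 of 5 endothelial genes, PECAM1, CDH5 and KDR, higher (0.37 to 0.55), by limma over all probes with breed as a covariate. Of 12 Schwann lineage genes 1, NGFR (-0.43), was lower with supplement and of 9 myelin genes 1, MAG (-0.75), against 5.6% of all probes, and the list medians were 0.03 and 0.23. With slide as a random block 1 probe of all was called, against 3850 without it, so at most 1 of these calls could hold under that setting.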
